A study of Homo sapiens with 4 samples.

Results

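The axon guidance ligands and receptors of PANC-1 cells are described here as they appeared in RNA immunoprecipitated with NSUN2. They were taken as the protein-coding genes of the authors' table whose symbol names a semaphorin of classes 3 to 7, an ephrin, a netrin, a Slit, a plexin, a neuropilin, an Eph receptor, a Robo receptor or an UNC5 receptor. This name rule found 59 genes among 24483, of which 32 encode ligands (18 semaphorins, 8 ephrins, 3 netrins and 3 Slits). The other 27 encode receptors (11 Eph receptors, 9 plexins, 3 Robo receptors, 2 neuropilins and 2 UNC5 receptors).

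PANC-1 is an established line of human pancreatic ductal adenocarcinoma, labelled wild-type, and NSUN2 is an enzyme that methylates cytosines in RNA. Cells grown with 10% serum were given 30 mM sodium lactate or, as vehicle, water for 24 h. RNA was then immunoprecipitated for 4 h with an antibody against NSUN2 (IP), and input RNA was kept from before that step. The series holds 4 libraries: lactate IP, lactate input, vehicle IP and vehicle input. Each group was a single library of 1 cell line, so the spread between cultures is unknown for every value and no test between groups was possible. No library from a control antibody was analysed here, so the amount of RNA that the beads retain without NSUN2 is unknown.

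Guidance cues steer growing axons, and the same proteins act on epithelial and tumour cells. Semaphorins signal through plexins, and the secreted class 3 semaphorins mostly need a neuropilin as co-receptor. Ephrins sit on the surface of one cell and bind Eph receptor tyrosine kinases on the next. Netrins bind DCC and UNC5 receptors, and Slits bind Robo receptors. In pancreatic cancer these families are known for frequent alteration and for a part in the spread of tumour cells along nerves.

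The sequence below is shown because it lies in a peak of EPHB6 that both IP libraries held, in bases that the authors' annotation places in the 5′ UTR. EPHB6 is an Eph receptor whose kinase is inactive, and in the lactate libraries it had the largest IP over input ratio of the receptor genes with at least 1 FPKM. The run is chr7:142862665-142862694 on the plus strand of GRCh38.p14, read from RefSeq. Its capitals mark the 7 bases that run from the summit of the lactate peak to that of the vehicle peak.
EPHB6: ggtgtggtgagGATTCAAttcatgtgtctg
The lactate peak spanned chr7:142862588-142862805 with a fold enrichment of 5.30 and a q of 6.99e-06. The vehicle peak spanned chr7:142862572-142862788 with a fold of 4.92 and a q of 8.58e-07. All peak folds and q values here are the authors' own, each from an IP library against its input.

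Library totals recovered from the gene values were 15189967 reads for lactate IP, 11175432 for lactate input, 13620414 for vehicle IP and 17626197 for vehicle input. Genes outside the mitochondrial genome held 13.9% of the reads in lactate IP and 20.9% in lactate input. They held 30.3% in vehicle IP and 31.3% in vehicle input. FPKM divides by all reads, so a nuclear gene with an unchanged share of nuclear reads reads lower in the lactate libraries. For that reason each comparison is given beside the median of all genes tested in it. Of 8 ductal adenocarcinoma markers, 7 reached an FPKM of 1, with summed FPKM between 217 and 769. S100A11, VIM and KRT18 held most of that sum in each library. KRT7 stayed below 1, with at most 0.81, and EPCAM reached 1 in the inputs alone. Of 12 neuron and Schwann cell markers, 7 were in the table and 2 reached 1, SYT1 with at most 14.6 and MAP2 with at most 1.17. The summed FPKM of that list was 6.73 in lactate IP, 10.3 in lactate input, 15.8 in vehicle IP and 13.6 in vehicle input. The Schwann cell marker SOX10 was at 0 in 3 libraries and at 0.012 in vehicle input. Of 9 endothelial, fibroblast and immune markers, 4 were in the table, and none passed an FPKM of 0.019.

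Only 18 of the 59 genes reached an FPKM of 1 in at least 1 library, and the other 41 stayed below it. The 59 genes drew 3134 reads in lactate IP, 3241 in lactate input, 5521 in vehicle IP and 6982 in vehicle input. Per 1000000 reads of nuclear genes these were 1483, 1386, 1338 and 1267 in the same order. At least 1 FPKM was reached by 13 of the genes in lactate IP, 8 in lactate input, 16 in vehicle IP and 8 in vehicle input. Of all 24483 genes, 5646, 5405, 8102 and 6529 reached it in the same order, so each IP also held more such genes than its input. The 8 genes that passed in each input were the same in both: EFNA1, EFNA5, NTN4, SEMA3A, SEMA3C, SEMA4B, EPHA2 and NRP1. The remaining 10 reached 1 only in IP RNA. For these 10, a higher value in IP than in input follows partly from the minimum.

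**Figure D1:**
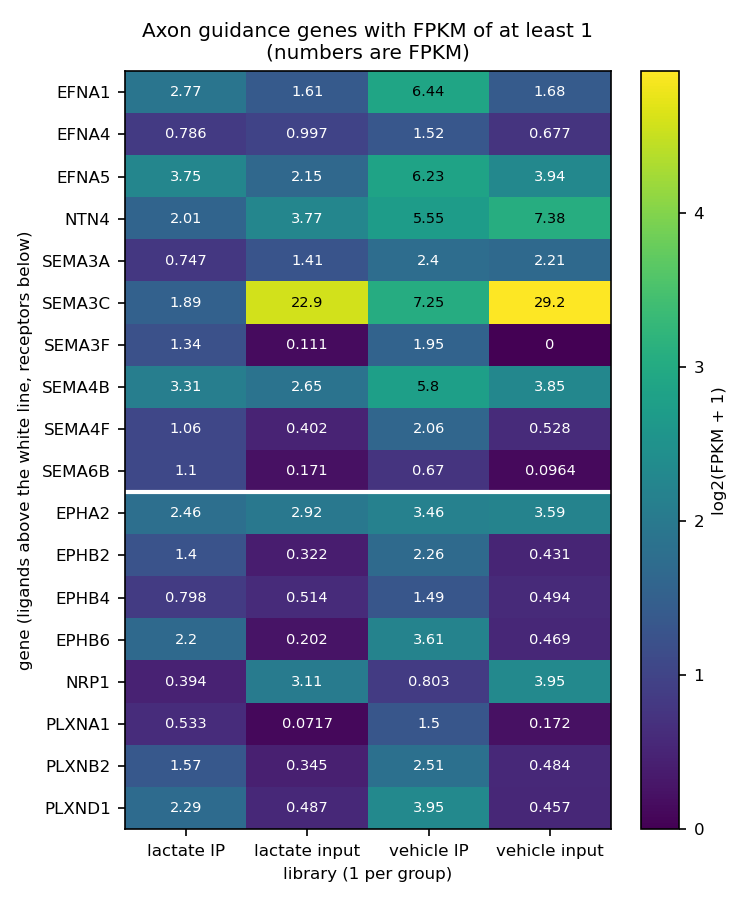
FPKM of the 18 axon guidance genes with at least 1 FPKM in at least 1 library, as a colour scale with the value printed in each cell; columns are the 4 libraries, rows the genes, ligands above the white line and receptors below it. SEMA3C stands out in the inputs with 22.9 FPKM in lactate input and 29.2 in vehicle input.

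Among the secreted ligands, SEMA3C was the most abundant member in both inputs and was depleted in both IPs. SEMA3C (ENSG00000075223, chr7:80742538-80922389) encodes a class 3 semaphorin that binds neuropilins. Its FPKM was 1.89 in lactate IP and 22.9 in lactate input, against 7.25 in vehicle IP and 29.2 in vehicle input. These rest on 175, 1562, 602 and 3140 reads in the same order. Both IP values lay far below both inputs, and the lactate IP was the lowest of the 4 libraries. Changes are log2 ratios of FPKM + 1, which understate differences at low levels. The ratio of IP over input was −3.05 in lactate cells and −1.87 in vehicle cells. Without the added 1 it was −3.60 in lactate cells (95% interval −3.83 to −3.37) and −2.01 in vehicle cells (−2.14 to −1.88). Intervals here come from the recovered reads and cover counting error only. The intervals do not overlap, but they leave out any spread between cultures or immunoprecipitations.

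The other class 3 semaphorins that reached 1 FPKM lay much lower in the inputs, and SEMA3F went the other way. SEMA3A, a repellent cue of the same class, had 0.747 FPKM in lactate IP and 1.41 in lactate input, against 2.40 in vehicle IP and 2.21 in vehicle input. Its log2 ratio of IP over input was −0.47 in lactate cells and 0.08 in vehicle cells. Relative to the median of all genes tested, these were −0.37 and −0.36. SEMA3F, which binds mainly NRP2, had 1.34 FPKM in lactate IP and 0.111 in lactate input, against 1.95 in vehicle IP and 0 in vehicle input. Its reads were 49 and 3 in the lactate IP and input, against 64 and 0 in the vehicle IP and input. Taking 3 reads as the floor for the vehicle input library, SEMA3F was 27.6-fold higher in vehicle IP than in vehicle input. This value leaves out the counting error of the 64 IP reads, so it is not a lower bound. In lactate cells its ratio was 3.59 on the log2 scale of FPKM alone, with an interval of 1.96 to 5.91 because of the 3 input reads. SEMA3F overlaps the antisense gene SEMA3F-AS1, and without stated use of strand their reads cannot be told apart.

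The membrane-bound semaphorins that reached 1 FPKM were SEMA4B, SEMA4F and SEMA6B, and all 3 were higher in IP than in input RNA under both treatments. SEMA4F and SEMA6B reached 1 FPKM only in IP RNA, so their direction follows partly from the minimum. SEMA4B had 3.31 FPKM in lactate IP and 2.65 in lactate input, against 5.80 in vehicle IP and 3.85 in vehicle input. Its log2 ratio of IP over input was 0.24 in lactate cells, against a median of −0.10 over all genes tested. In vehicle cells it was 0.49, near the median of 0.44. SEMA4F had 1.06 and 0.402 FPKM in the lactate IP and input, against 2.06 and 0.528 in the vehicle IP and input. SEMA6B, a class 6 semaphorin, had 1.10 and 0.171 FPKM in the lactate IP and input, against 0.670 and 0.0964 in the vehicle IP and input. It was the one member whose value in lactate IP was above that in vehicle IP among the 17 tested. Of the 2 IP libraries SEMA6B reached 1 FPKM in lactate IP alone, so this direction too follows partly from the minimum. Its reads were 79 in lactate IP and 43 in vehicle IP, with 9 and 8 in the 2 inputs.

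The ephrins and the netrin differed in direction. EFNA1, a ligand of EPHA2 that is tethered to the membrane by a lipid anchor, had 2.77 FPKM in lactate IP and 1.61 in lactate input, against 6.44 in vehicle IP and 1.68 in vehicle input. Its 2 inputs were close, and its vehicle IP was the highest of the 4. EFNA5, another ephrin of the A class, had 3.75 and 2.15 FPKM in the lactate IP and input, against 6.23 and 3.94 in the vehicle IP and input. NTN4, a laminin-related netrin found in basement membranes, had 2.01 and 3.77 FPKM in the lactate IP and input, against 5.55 and 7.38 in the vehicle IP and input. NTN4 was thus lower in IP than in input RNA in both pairs, with log2 ratios of −0.67 in lactate cells and −0.36 in vehicle cells. EFNA4 had 0.786 and 0.997 FPKM in the lactate IP and input, against 1.52 and 0.677 in the vehicle IP and input, from 14 to 26 reads. EFNA4 shares bases with read-through genes that join it to ADAM15 and to EFNA3, so its counts are uncertain.

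Among the receptors, the 3 plexins that reached 1 FPKM were concentrated in IP RNA while NRP1, the plexins' co-receptor for class 3 semaphorins, was depleted. PLXND1 (ENSG00000004399, chr3:129555214-129606676), the plexin that binds SEMA3E, had 2.287 FPKM in lactate IP and 0.487 in lactate input, against 3.95 in vehicle IP and 0.457 in vehicle input. Its reads were 332 and 52 in the lactate pair, against 514 and 77 in the vehicle pair. The log2 ratio of FPKM alone was 2.23 in lactate cells (1.81 to 2.68) and 3.11 in vehicle cells (2.76 to 3.48). PLXNB2, a receptor of class 4 semaphorins, had 1.57 and 0.345 FPKM in the lactate IP and input, against 2.51 and 0.484 in the vehicle IP and input. PLXNA1, which pairs with neuropilins, had 0.533 and 0.0717 FPKM in the lactate IP and input, against 1.50 and 0.172 in the vehicle IP and input. Every one of these 3 plexins was higher in IP than in input RNA in both pairs. All 3 reached 1 FPKM only in IP RNA, so this direction follows partly from the minimum. PLXNB1, the receptor of SEMA4D, lay lower and had opposite directions under the 2 treatments. It had 0.00674 FPKM in lactate IP and 0.128 in lactate input, against 0.413 in vehicle IP and 0.0523 in vehicle input. These are 1 and 14 reads in the lactate IP and input, against 55 and 9 in the vehicle IP and input.

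NRP1 (ENSG00000099250, chr10:33177493-33334667) had 0.394 FPKM in lactate IP and 3.11 in lactate input, against 0.803 in vehicle IP and 3.95 in vehicle input. The log2 ratio of FPKM alone was −2.98 in lactate cells (−3.37 to −2.61) and −2.30 in vehicle cells (−2.58 to −2.03). NRP2, its paralog, lay the other way at low levels, with 0.161 FPKM in lactate IP and 0.039 in lactate input, against 0.486 in vehicle IP and 0.090 in vehicle input. NRP2 rests on 17 and 3 reads in the lactate pair, against 46 and 11 in the vehicle pair.

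The Eph receptors differed among themselves, with EPHB6 and EPHB2 higher in IP than in input RNA and EPHA2 near its input. EPHB6 and EPHB2 reached 1 FPKM only in IP RNA, so their direction follows partly from the minimum. EPHB6 (ENSG00000106123, chr7:142855076-142871093), whose peak sequence stands above, had 2.201 FPKM in lactate IP and 0.202 in lactate input, against 3.61 in vehicle IP and 0.469 in vehicle input. Its log2 ratio of FPKM alone was 3.45 in lactate cells (2.61 to 4.43) and 2.95 in vehicle cells (2.48 to 3.44), so the intervals overlap. EPHB2, a kinase that binds ephrins of the B class, had 1.40 and 0.322 FPKM in the lactate IP and input, against 2.26 and 0.431 in the vehicle IP and input. EPHA2, a kinase often abundant in carcinoma, had 2.46 and 2.92 FPKM in the lactate IP and input, against 3.46 and 3.59 in the vehicle IP and input. The intervals of its log2 ratio of IP over input held 0 in both, at −0.59 to 0.10 in lactate cells and −0.33 to 0.22 in vehicle cells. The median of FPKM alone over all genes tested was −0.17 in lactate cells and 0.62 in vehicle cells. The EPHA2 interval thus lay below that median in vehicle cells and held it in lactate cells. EPHB4 had 0.798 and 0.514 FPKM in the lactate IP and input, against 1.49 and 0.494 in the vehicle IP and input. EPHA2 shares bases with EPHA2-AS1 and EPHB4 with SLC12A9, so reads in the overlaps cannot be assigned with certainty.

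**Figure D2:**
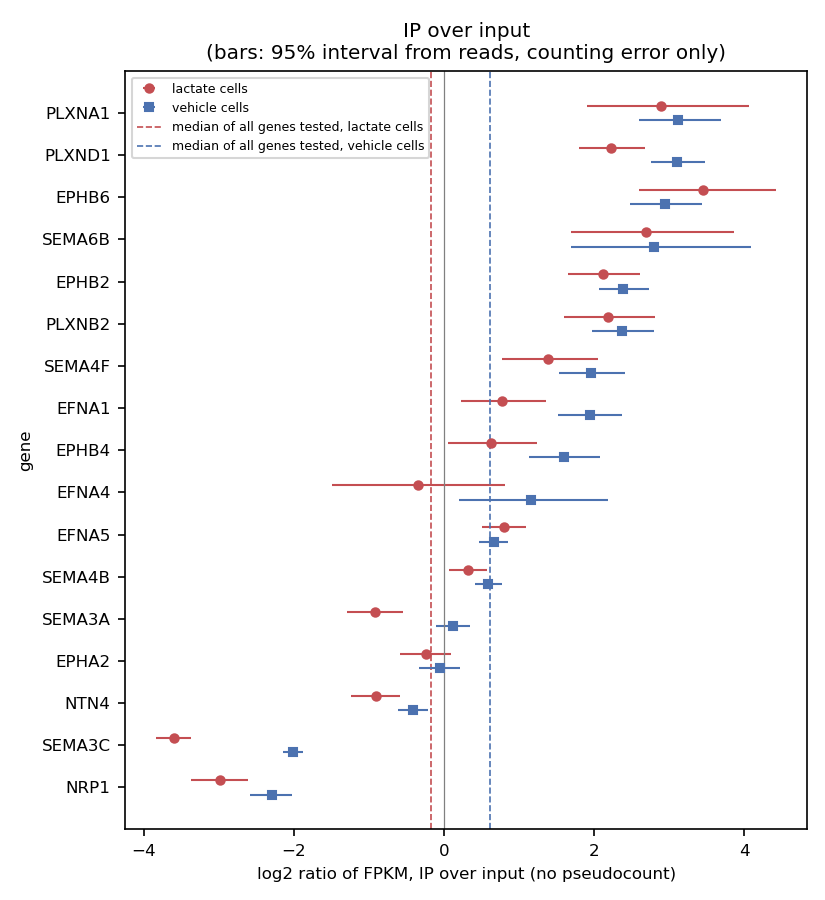
Log2 ratio of FPKM in IP over input, without an added constant, for the axon guidance genes with at least 1 FPKM in at least 1 library; lactate and vehicle cells are drawn as separate points and bars are 95% intervals from reads, for counting error only. SEMA3F, which had 0 reads in vehicle input, is not drawn. SEMA3C and NRP1 lie left of 0 in both, and the 3 plexins, EPHB2 and EPHB6 lie right of 0 in both.

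The 9 plexins, read together, gave the strongest enrichment of any family. Their summed FPKM was 4.80 in lactate IP and 1.19 in lactate input, against 9.36 in vehicle IP and 1.35 in vehicle input. The log2 ratio of their summed reads, scaled to the library totals, was 2.003 in lactate cells (1.72 to 2.292) and 2.82 in vehicle cells (2.62 to 3.04). The 11 Eph receptors gave 0.99 in lactate cells (0.78 to 1.20) and 1.12 in vehicle cells (0.98 to 1.27). The 8 ephrins gave 0.74 in lactate cells and 0.89 in vehicle cells. Below 0 lay the neuropilins, with −2.67 in lactate cells and −1.87 in vehicle cells, and the semaphorins, with −1.53 in lactate cells and −0.78 in vehicle cells. NRP1 and SEMA3C held most reads of those sums in the inputs. The netrins, almost all NTN4, gave −0.91 in lactate cells and −0.42 in vehicle cells. The Robo receptors, none of which reached 1 FPKM, gave 0.94 in lactate cells (0.41 to 1.50) and 1.21 in vehicle cells (0.81 to 1.61). For all genes tested with reads in IP and input, the median log2 ratio of FPKM alone was −0.17 in lactate cells and 0.62 in vehicle cells. Per nuclear read, every ratio without an added constant, of families and single genes, is higher by 0.59 in lactate cells and 0.05 in vehicle cells. Differences between the treatments in these ratios therefore depend on the scale.

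Counted at a 2-fold change, IP over input in lactate cells had 3 genes higher and 2 lower among the 15 of the 59 that reached 1 FPKM in either library, which are the genes called tested here. The higher ones were EPHB6, PLXND1 and SEMA3F, and the lower ones SEMA3C and NRP1. Of all genes tested in that comparison, 16.0% were higher and 23.3% lower (13.7% and 22.4% of protein-coding genes). In vehicle cells 8 of 17 were higher, against 27.6% of all genes tested, and 2 of 17 were lower, against 15.3%. Protein-coding genes alone gave 26.0% higher and 14.8% lower. The higher ones were PLXND1, EPHB6, SEMA3F, EFNA1, PLXNB2, EPHB2, PLXNA1 and SEMA4F, the last at 1.00, and the lower ones again SEMA3C and NRP1. The median log2 ratio of the tested members was 0.55 in lactate cells, against −0.10 for all genes, and 0.74 in vehicle cells, against 0.44 for all genes.

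These counts follow partly from the minimum. In vehicle cells 7 of the 8 higher genes passed it through the IP alone, EFNA1 being the exception, and in lactate cells all 3 did. When the mean of IP and input had to reach 1 FPKM, a choice made after seeing the data, 2 of 10 were higher in lactate cells and 6 of 14 in vehicle cells. All genes then gave 15.6% higher in lactate cells and 28.5% in vehicle cells. Relative to the median of all genes tested, 4 members were at least 2-fold higher and 2 lower in each treatment. In lactate cells these were EPHB6 at 1.51, PLXND1 at 1.24, SEMA3F at 1.17 and PLXNB2 at 1.03, against 19.3% of all genes higher and 20.5% lower. In vehicle cells they were PLXND1 at 1.32, EPHB6 at 1.21, SEMA3F at 1.12 and EFNA1 at 1.03, against 12.4% of all genes higher and 23.9% lower. SEMA3C lay at −2.95 in lactate cells and −2.31 in vehicle cells on this scale, and NRP1 at −1.46 in lactate cells and −1.90 in vehicle cells.

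The counts also depend on which reads FPKM is scaled to. Scaled to the reads of nuclear genes, values are higher and more genes reach the minimum. On that scale 14 of 28 members were at least 2-fold higher and 2 lower in lactate cells, beside 41.2% of all genes higher and 16.4% lower. In vehicle cells 14 of 26 were higher and 2 lower, beside 36.4% and 16.7% of all genes. The lower ones were SEMA3C and NRP1 in both treatments. With 0.1 added to each FPKM in place of 1, 7 members were higher and 2 lower among the 15 tested in lactate cells.

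The 41 genes below 1 FPKM were led by PLXNA3, with 0.746 in vehicle IP, and 10 of them were at 0 in both inputs. IP exceeded input for 20 of them in lactate cells and 25 in vehicle cells, and lay below it for 10 in lactate cells and 14 in vehicle cells. Among all genes tested, which reached 1 FPKM, IP exceeded input for 3402 of 7170 in lactate cells and 5696 of 9099 in vehicle cells. The share among all genes below 1 FPKM was not counted, so the counts of the 41 show no trait of their own. PLXNA3 itself had 51 reads in lactate IP and 14 in lactate input, against 119 in vehicle IP and 12 in vehicle input. ROBO1, a Slit receptor, had 50 and 17 reads in the lactate IP and input, against 88 and 62 in the vehicle IP and input. ROBO3, a divergent member of that family, had 57 and 24 reads in the lactate IP and input, against 62 and 21 in the vehicle IP and input. Per library total, all 3 were higher in IP than in input RNA in both pairs. None of the Slit genes reached 1 FPKM, and the 3 together had 2 reads in lactate IP and 3 in lactate input, against 21 in vehicle IP and 13 in vehicle input. Those counts are too few for a comparison of single Slit genes.

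Whether lactate changed the amount of these transcripts in the cells was read from the inputs, where none of the 8 genes tested passed 2-fold. Over all genes, 1.76% were higher and 6.46% lower in lactate input (0.036% and 3.07% of protein-coding genes). The log2 ratio of lactate input over vehicle input was −0.81 for NTN4 and −0.65 for EFNA5, and between −0.41 and −0.04 for EFNA1, SEMA3A, SEMA3C, SEMA4B, EPHA2 and NRP1. The median over all genes was −0.43. NTN4 and EFNA5 were the 2 below it, and the other 6 lay above it. Relative to it none of the 8 passed 2-fold, against 2.68% higher and 1.36% lower over all genes. With FPKM scaled to nuclear reads, 2 of 22 members were at least 2-fold higher in lactate input and none lower, beside 7.07% and 7.42% of all genes. These were SEMA7A at 1.68, with 21 reads in lactate input and 1 in vehicle input, and EFNA3 at 1.22, with 13 reads in lactate input and 7 in vehicle input. As log2 ratios of reads per nuclear read, NTN4 was at −0.39 (−0.64 to −0.15) and EFNA5 at −0.29 (−0.58 to −0.01), while SEMA3C was at 0.23 (0.14 to 0.32). In bulk RNA, fewer cells with a transcript and less of it per cell cannot be told apart.

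Between the IP libraries, 16 of 17 tested members were lower in lactate IP, as were most genes. SEMA3A, PLXNA1, EPHB4 and EFNA4 reached 1 FPKM in vehicle IP alone, and SEMA6B in lactate IP alone. The direction of each of them follows partly from the minimum. NTN4 and SEMA3C were at least 2-fold lower, and none was 2-fold higher, against 27.7% lower and 1.64% higher over all genes. Of protein-coding genes, 24.4% were lower and 0.0% higher. The log2 ratio was −1.51 for SEMA3C and −1.12 for NTN4, against a median of −0.74 over all genes. EFNA1 was at −0.98 and SEMA3A at −0.96. Those 4 ligands were the members below that median, and the other 13, with all 7 receptors tested, were above it. Relative to the median, SEMA3C was at −0.77, and SEMA6B at 1.08 was the single member past 2-fold, with 3.66% of all genes and 0.657% of protein-coding genes past it upward. No member was 2-fold lower on this scale, against 2.61% of all genes and 1.07% of protein-coding genes. Most of these signs depend on the scale: as log2 ratios of reads per nuclear read, PLXND1 was at 0.34 (0.13 to 0.54), EPHB6 at 0.41 (0.13 to 0.69) and SEMA6B at 1.84 (1.29 to 2.41). SEMA3C stayed below 0 on that scale too, at −0.82 (−1.07 to −0.57), as did SEMA3A at −0.56, NTN4 at −0.35 and PLXNA1 at −0.37, while EFNA1 at −0.10 had an interval that held 0 (−0.47 to 0.27). Counted on FPKM scaled to nuclear reads, EFNA2, SEMA7A and SEMA6B were at least 2-fold higher and PLXNB1 lower among 29 members, beside 12.6% of all genes higher and 8.53% lower.

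The difference of the log2 enrichments, lactate cells less vehicle cells, uses the same 4 libraries again and so adds no independent evidence. SEMA3C was the only one of 18 tested members past 2-fold, at −1.18, against 9.56% of all genes lower and 3.04% higher (5.1% and 0.27% of protein-coding genes). Without the added 1 its difference was −1.59 (−1.85 to −1.33). EFNA1 followed at −0.95, and its difference without the added 1 was −1.16 (−1.84 to −0.48). Per nuclear read, each difference without the added 1 is higher by 0.54. The interval of EFNA1 then holds 0, while that of SEMA3C stays below it. The median over the members was −0.39, against −0.36 over all genes, and 9 of the 18 lay on each side of that value for all genes. EPHB6 was 0.12, PLXNB2 0.04 and EPHB2 0.03 above it. Relative to the median of all genes no member passed 2-fold, against 3.28% of all genes lower and 5.11% higher. With FPKM scaled to nuclear reads, SEMA3C at −1.0002 and PLXNB1 at −1.64 were lower and EFNA2 at 2.25 and SEMA6B at 1.0025 higher among 30 members, beside 11.2% of all genes lower and 15.6% higher.

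The peak lists place the immunoprecipitated RNA along each gene. In lactate cells 141 peaks lay in 36 of the 59 genes, and in vehicle cells 334 peaks lay in 47. Of all protein-coding genes, 64.7% had a listed peak in lactate cells and 78.9% in vehicle cells. Both lists held a peak of 32 of the genes, 4 had one in lactate cells alone, 15 in vehicle cells alone, and 8 had none. As shares of the 59 these were 54.2%, 6.78%, 25.4% and 13.6%, beside 61.7%, 3.01%, 17.2% and 18.1% of all protein-coding genes. At a q under 0.05, 56 peaks in 22 genes remained in lactate cells and 141 peaks in 35 genes in vehicle cells. Of all protein-coding genes, 46.5% had such a peak in lactate cells and 65.5% in vehicle cells. The vehicle list was longer throughout, so its larger counts do not show more binding of these genes.

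**Figure D3:**
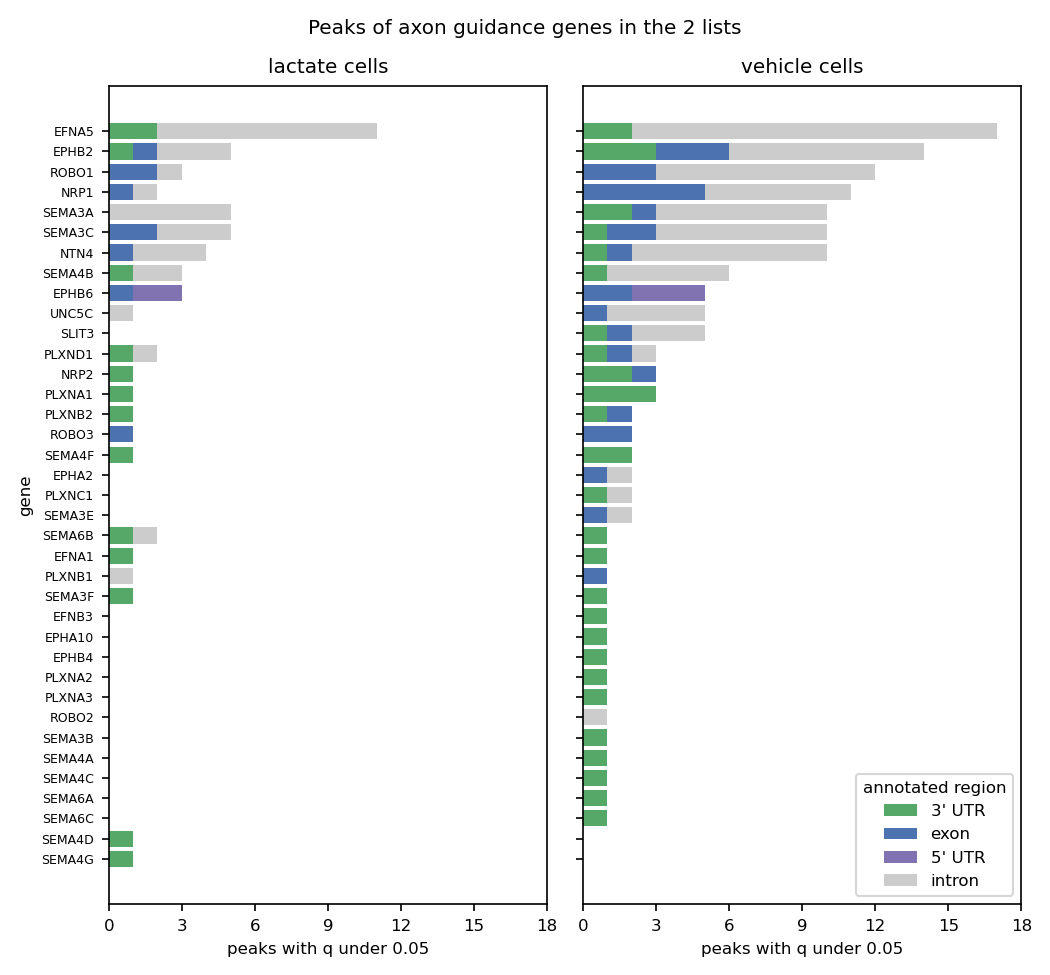
Number of peaks with a q under 0.05 in each axon guidance gene that had one in either list, for lactate cells and vehicle cells in panels of their own, coloured by the annotated region. EFNA5 has 11 in lactate cells and 17 in vehicle cells, the most of any gene in both panels.

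The genes at least 2-fold higher in IP had their strongest peak, taken by the lowest q, in a 3′ UTR or a late exon. So did members not counted as 2-fold higher on FPKM + 1. The lowest q of either list lay in a 3′ UTR for SEMA4B, EFNA5, EPHB4 and SEMA6B. The share over all genes was not counted. Gene values and peaks come from the same libraries, so they are not independent. PLXND1 carried a 3′ UTR peak at chr3:129555175-129555923 in lactate cells, with a fold of 16.2 and a q of 4.47e-89. In vehicle cells it lay at chr3:129555085-129555764, with a fold of 16.3 and a q of 7.96e-158. SEMA3F had its 3′ UTR peak at chr3:50188401-50189195 in lactate cells with a fold of 8.09, and at chr3:50188181-50189193 in vehicle cells with a fold of 33.4. The SEMA3F fold in vehicle cells stands over an input in which the gene had 0 reads. EPHB6 had its peak of lowest q at the 3′ end of the gene, labelled exon, at chr7:142870342-142871148 in lactate cells with a fold of 22.4. In vehicle cells it lay at chr7:142870362-142871143 with a fold of 6.82, below the 9.71 of another exon peak at chr7:142861852-142862285.

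EPHB2 had its strongest peak at chr1:22913390-22913890 in lactate cells, labelled exon, with a fold of 12.0. The vehicle peak over the same bases, chr1:22913327-22913876, was labelled 3′ UTR and had a fold of 25.9. The 3′ UTR peak of PLXNA1 lay at chr3:127036933-127037472 in lactate cells (fold 5.74) and chr3:127036886-127037397 in vehicle cells (fold 9.09). That of PLXNB2 lay at chr22:50274941-50275348 in lactate cells (fold 4.18) and chr22:50274872-50275428 in vehicle cells (fold 7.65). EFNA1 had a single peak in each list, in its 3′ UTR, at chr1:155134517-155134836 in lactate cells (fold 3.86) and chr1:155134488-155134931 in vehicle cells (fold 3.98). For SEMA4F the 3′ UTR peak lay at chr2:74681746-74682119 in lactate cells (fold 3.60) and chr2:74681645-74682110 in vehicle cells (fold 6.80).

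The genes depleted in IP RNA had peaks too. SEMA3C had 11 peaks in lactate cells, 9 of them intronic, and 30 in vehicle cells, 21 of them intronic. Its strongest was at chr7:80882468-80882694 in lactate cells with a fold of 7.91, and at chr7:80867166-80867747 in vehicle cells with a fold of 20.6. NRP1 had 12 peaks in lactate cells, 9 of them intronic, and 28 in vehicle cells, 20 of them intronic. NTN4, lower in IP by less than 2-fold, had 10 peaks in lactate cells and 18 in vehicle cells. Its strongest peak, at chr12:95744753-95746169 in lactate cells (fold 11.5) and chr12:95744857-95746112 in vehicle cells (fold 14.3), was intronic in both. Introns also held 6 of the 10 lactate peaks and 21 of the 28 vehicle peaks of EPHB2, a gene higher in IP.

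Over all 59 genes, introns held 68.1% of the peaks in lactate cells and 69.8% in vehicle cells, against 61.5% and 61.2% over all protein-coding genes. The 3′ UTR held 17.7% in lactate cells and 15.0% in vehicle cells, against 18.1% and 15.8% over all protein-coding genes. Exons held 12.1% in lactate cells and 14.1% in vehicle cells, against 18.8% and 21.0% over all protein-coding genes. EFNA5, whose RefSeq span is 294044 bp, had 26 intronic peaks in lactate cells and 39 in vehicle cells, and ROBO1, with a span of 1170760 bp, had 9 in lactate cells and 34 in vehicle cells. ROBO2, with a span of 1743290 bp, had 0 in lactate cells and 2 in vehicle cells.

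Of the 141 lactate peaks, 75 overlapped a vehicle peak by at least 1 base, or 53.2% (Wilson 95% interval 45.0 to 61.2), against 58.5% over all protein-coding genes. Of the 334 vehicle peaks, 75 overlapped a lactate peak, or 22.5%, against 29.9%. By region, 20 of 25 lactate peaks in 3′ UTRs were shared (80.0%) and 39 of 96 in introns (40.6%), beside 79.4% and 47.3% over all protein-coding genes. In the vehicle list these were 20 of 50 in 3′ UTRs (40.0%) and 40 of 233 in introns (17.2%), beside 43.8% and 24.1% over all protein-coding genes.

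At peaks called in both IP libraries, the authors' deposited table gives a log2 ratio M of lactate IP over vehicle IP after the authors' own normalization. The 75 peaks of these genes had a median M of 0.14 in the authors' deposited table, against 0.003 over its 26381 common peaks. Of the 75, 9 had an M of at least 1 in the authors' deposited table, against 9.21% of common peaks, and 3 had an M of −1 or below, against 9.30%. The 21 common peaks in 3′ UTRs had a median M of 0.12 in the authors' deposited table, and 1 of them, in SEMA6B, passed 1. That SEMA6B peak had a density of 28.7 in lactate IP and 13.4 in vehicle IP in the authors' deposited table. Its gene value was likewise higher in lactate IP than in vehicle IP, from reads that the peak shares.

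The 3′ UTR peak of PLXND1 had a density of 142.5 in lactate IP and 117.2 in vehicle IP in the authors' deposited table, an M of 0.28. For the EPHB6 peak shown above, the authors' deposited table gave densities of 15.9 in lactate IP and 16.5 in vehicle IP, an M of −0.06. EFNA1 was at −0.42 and PLXNA1, at its strongest peak, at −0.70 in the authors' deposited table. The lowest M of the 75 in the authors' deposited table were those of an NRP1 exon at −2.50, a SEMA3C exon at −1.94 and an EPHB6 5′ UTR at −1.02. The NRP1 exon at −2.50 had densities of only 0.47 in lactate IP and 2.66 in vehicle IP in the authors' deposited table. Another NRP1 exon was at 1.92 in the authors' deposited table, with 7.29 in lactate IP and 1.92 in vehicle IP. A neighbouring intron peak had the same values there, so they are not particular to that exon. At such low densities the opposite signs were not read as changes in both directions. Of the 39 common intron peaks, 7 had an M of at least 1 in the authors' deposited table, beside 9.21% of common peaks of any region. The share over all common intron peaks was not counted. The highest of the 7 was in EFNA5 at 2.70, with densities of 12.2 in lactate IP and 1.88 in vehicle IP in the authors' deposited table.

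**Figure D4:**
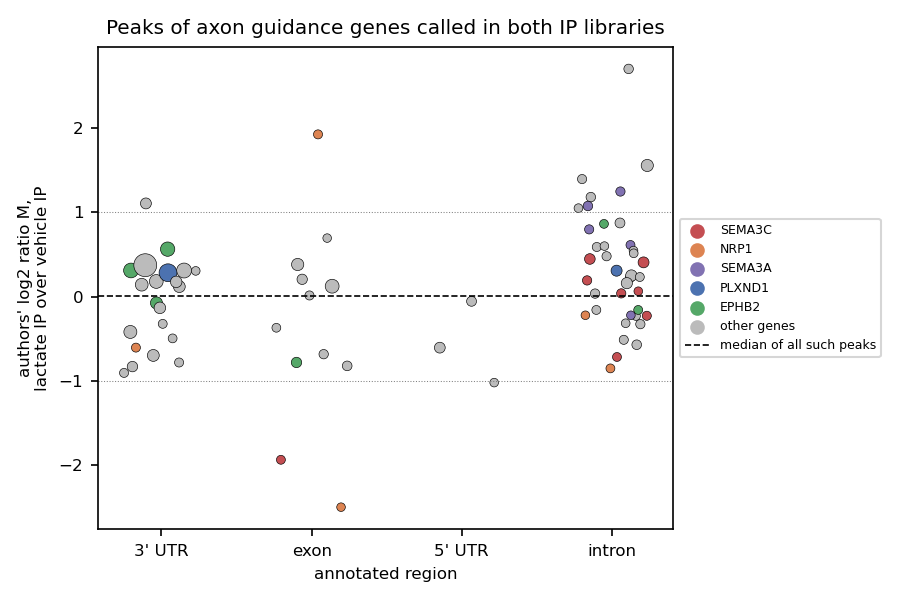
The authors' log2 ratio M of lactate IP over vehicle IP at the 75 peaks of axon guidance genes called in both libraries, by annotated region; each point is a peak, larger with its higher density, coloured for 5 genes, and the dashed line is the median of all 26381 common peaks. The median of the points is 0.14, and the 3′ UTR peaks lie closer together than the intron peaks, with 1 of 21 and 7 of 39 at 1 or above. Shares by region over all common peaks were not counted.

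The wider pathway was read from a list of 97 further genes in the table, which holds other guidance cues and receptors, GTPases, kinases and actin regulators. In lactate cells 41 were tested for IP over input, of which 4 were at least 2-fold higher and 10 lower, with a median log2 ratio of 0.18. Over all genes tested these were 16.0% and 23.3%, with a median of −0.10. ABL2, a kinase that binds actin, was highest at 1.34, with PAK4, a kinase downstream of CDC42, at 1.18 and ARHGEF11, a GTPase exchange factor that binds class B plexins, at 1.18. ACTR2, a subunit of the Arp2/3 complex that nucleates actin, was lowest at −3.75, followed by RTN4, which encodes the neurite growth inhibitor Nogo, at −3.04 and the kinase YES1 at −2.78. In vehicle cells 15 of 48 were higher and 7 lower, with a median of 0.80, beside 27.6% and 15.3% of all genes and their median of 0.44. SRGAP1, a GTPase activator that binds Robo receptors, was highest at 1.88, then MYO10 at 1.79 and ABL2 at 1.67. ACTR2 at −3.50, RTN4 at −2.44 and ACTR3 at −2.12 were lowest. PAK4 and ARHGEF11 in lactate cells, and SRGAP1 in vehicle cells, reached 1 FPKM in the IP but not in its input. The direction of these genes, and the counts of higher list genes, follow partly from the minimum.

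Set against the members, the pathway list also held strongly depleted genes beside enriched ones in both treatments. ACTR2 had 19.1 FPKM in lactate IP and 270 in lactate input, against 29.5 in vehicle IP and 343 in vehicle input. Between the inputs 1 of 37 list genes passed 2-fold, CFL1, the actin-severing cofilin, at −1.03, beside 6.46% of all genes lower and 1.76% higher. Between the IP libraries 11 of 48 were lower and none higher, beside 27.7% and 1.64% of all genes, led by the kinase ROCK1 at −1.53, WASL at −1.38 and MET at −1.25, with NCK1 highest at 0.21. Of the 2 IP libraries NCK1 reached 1 FPKM in lactate IP alone, so its direction follows partly from the minimum. The median of −0.76 for the list stood beside −0.74 over all genes, and none of the 48 passed 2-fold relative to the latter. For the difference of enrichments 2 of 49 were lower, WASL, an activator of the Arp2/3 complex, at −1.31 and VASP, which promotes the elongation of actin filaments, at −1.17, beside 9.56% of all genes lower and 3.04% higher.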

How the data were processed

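RNA immunoprecipitation libraries of PANC-1 cells, 1 per group, were compared. The authors deposited gene values as FPKM; the submitters' processing notes name HOMER 4.11.1, MACS2 2.2.7.1, fastp 0.20.1, HISAT2 2.1.0, DiffBind and bedtools 2.29.2, and the build GRCh38. The read counter, its annotation and its strand setting were not given in the sources used here. Per the file headers, the authors' peak lists, 1 per condition, give the fold enrichment as a ratio, the p-value, the q-value and the −log10 of both. A table deposited by the authors gives the log2 ratio M and mean A with normalized read density (signal) in each IP library; its column headed as a P value never exceeds 0.25 and was not used.

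Members were matched by symbol. The members and lists were chosen with earlier results of these data known. Named members were those reaching 1 FPKM in a library, those leading a family or having peaks in both lists, and from the pathway list the 3 highest and 3 lowest per comparison. Whole reads were recovered from the FPKM values, and all 72387 nonzero values gave whole numbers within 1e-06 reads. Any divisor shared by the 4 counts of 1 gene cannot be seen, so reads may be understated and intervals too wide. Genes with at least 1 FPKM in at least 1 compared library were tested as the log2 ratio of FPKM + 1 and counted at 2-fold. Intervals are exact 95% binomial ones on recovered reads (normal approximations for differences of enrichments), and the kit adds no molecular identifiers. Scripts used Python 3.11.15, scipy 1.17.1 and pandas 2.3.3, and recovery and intervals were tested on simulated data. Other pseudocounts, minimums, scalings and peak thresholds were tried. RefSeq (GRCh38.p14) gave spans of all 59 members and promoter windows of 50.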

Additional observations from a re-analysis of the deposited data

Results flagged for a closer look

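Of the members with at least 1 FPKM in a library, SEMA3A and EFNA4 lay on opposite sides of 0 under the 2 treatments. SEMA3A had a log2 ratio of IP over input of −0.47 in lactate cells and 0.083 in vehicle cells. Relative to the median of all genes tested, both were below 0, at −0.37 in lactate cells and −0.36 in vehicle cells. EFNA4 was at −0.16 in lactate cells, where it did not reach 1 FPKM, and at 0.59 in vehicle cells, from 14 to 26 reads a library.

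Below 1 FPKM, PLXNB1 and EFNA2 were the members whose counting intervals lay on opposite sides of 0. The ratio of PLXNB1 without an added constant was −4.25 in lactate cells (−9.65 to −1.53, with 1 read in the IP) and 2.98 in vehicle cells (1.96 to 4.19). EFNA2, an ephrin of the A class, was at 1.97 in lactate cells (0.17 to 4.39), with 16 reads in IP and 3 in input. In vehicle cells EFNA2 was at −2.53 (−5.71 to −0.43), with 2 reads in IP and 15 in input. None of these differences between treatments was tested, since each treatment had 1 IP and 1 input library.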

How the results depend on the processing

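No paired analysis was possible because each group held 1 library, and for the same reason no replicate could be left out. Members past 2-fold numbered 0 between the inputs, 5 for the IP over its input in lactate cells, 10 for the same in vehicle cells, 2 between the IP libraries and 1 for the difference of enrichments. Per nuclear read they were 2, 16, 16, 4 and 4. With a pseudocount of 0.1, IP over input in lactate cells gave 9, the IP libraries 5 and the difference 4. With a pseudocount of 5, lactate cells and vehicle cells gave 1 each, and the IP libraries and the difference 0 each. With a minimum of 5 FPKM, lactate cells gave 1 and vehicle cells 2. Minus the median of all genes, vehicle cells gave 6, the IP libraries 1 and the difference 0. The pathway list gave 1, 14, 22, 11 and 2 in the same order, then 2, 22, 35, 22 and 7 with a pseudocount of 0.1, and 0, 7, 9, 2 and 0 with 5. Minus the median it gave 0 for the inputs, 14 in vehicle cells, and 0 for the IP libraries and the difference. Members with a peak in lactate cells fell to 22 at a q under 0.05, and to 20 at a q under 0.01 or a fold of at least 4, and in vehicle cells to 30 at a fold of at least 4. Of lactate peaks, 64.3% were shared when both lists were held to a q under 0.05. The cause of these shifts was not tested. Of the values of single genes under other settings, 252 kept their side of 2-fold, 23 passed it and 25 no longer did, and no called value changed sign. Values short of 2-fold often did. Between the inputs only NTN4 and EFNA5 kept their sign, and between the IP libraries only SEMA3C, NTN4, EFNA1, SEMA3A and SEMA6B. For the difference of enrichments NTN4, NRP1, EPHB2, EPHB6, SEMA4F, EPHA2, EFNA5, SEMA4B and PLXNB2 changed sign. For IP over input only SEMA3A in vehicle cells and EPHA2 in lactate cells did. Depth limits the members below 1 FPKM, with at most 151 reads in a library.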
